A study of Homo sapiens with 8 samples.

Results

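Transcripts of 43 germline genes that work in meiosis and in the piRNA pathway were followed in DLD1 colorectal cancer cells after UHRF1 depletion, after HDAC inhibition, and after both. The genes were taken by symbol from the arrays, and every non-control probe carrying such a symbol was used, which gave 59 of 50599 probes and 43 of 36337 named genes or transcripts. DLD1 is an established human colorectal cancer cell line that carries the CpG island methylator phenotype (CIMP), in which many CpG islands are methylated. Its cells received siCONT, a control siRNA, or 1 of 2 siRNAs that target UHRF1 (siUHRF1-1 and siUHRF1-2), and were kept for 48 h. They then received 300 nM trichostatin A (TSA), which inhibits histone deacetylases (HDACs), or ethanol alone (mock), for 24 h more. The 8 arrays made 4 groups of 2, namely siCONT with mock, UHRF1 siRNA with mock, siCONT with TSA, and UHRF1 siRNA with TSA. Within a group treated with UHRF1 siRNA the 2 arrays carried the 2 siRNAs, which stood as its replicates. All samples came from this 1 line after transient transfection, so none represents a germ cell.

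Germ cells use a set of genes that other tissues keep silent. Many of these genes start in CpG-rich promoters that are methylated in somatic cells, and UHRF1 guides DNMT1, the enzyme that copies methylation at replication, to hemimethylated DNA. Meiosis needs proteins that break and repair DNA, cohesins that hold sister chromatids, and the synaptonemal complex that zips homologues together. The piRNA pathway uses PIWI proteins loaded with small RNAs, together with Tudor-domain scaffold proteins, to silence transposons in the germline. A repressor complex called PRC1.6, which contains MGA, MAX, E2F6 and L3MBTL2, keeps many of these genes off in somatic cells.

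RefSeq start regions on GRCh38.p14 were found for 37 of the 43 genes, and the 250 bases before the start were read from each. No window was held for TEX14, HORMAD1, TEX15, PIWIL2, PIWIL3 and PIWIL4. Where a gene had several windows, the one with the most CpG dinucleotides was taken. The 6 genes whose probe came above background on both arrays with UHRF1 siRNA under mock are shown first because the results turn on them, and DAZL and DDX4 follow as germ cell genes whose probes stayed dim on all 8 arrays. Each sequence reads 5′ to 3′ on the strand of its gene, with CpG in capitals. MEI1 lies at chr22:41699253-41699502 (plus strand), SOHLH1 at chr9:135699482-135699731 (minus strand), STK31 at chr7:23709969-23710218 (plus strand), TDRD1 at chr10:114179103-114179352 (plus strand), TDRD6 at chr6:46687635-46687884 (plus strand), TEX101 at chr19:43414640-43414889 (plus strand), DAZL at chr3:16605424-16605673 (minus strand) and DDX4 at chr5:55766635-55766884 (plus strand).
MEI1: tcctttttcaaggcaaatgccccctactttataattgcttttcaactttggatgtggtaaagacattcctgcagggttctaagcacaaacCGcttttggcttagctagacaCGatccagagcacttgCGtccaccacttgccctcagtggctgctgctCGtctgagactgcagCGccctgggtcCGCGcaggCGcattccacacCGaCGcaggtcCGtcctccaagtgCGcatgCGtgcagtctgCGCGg
SOHLH1: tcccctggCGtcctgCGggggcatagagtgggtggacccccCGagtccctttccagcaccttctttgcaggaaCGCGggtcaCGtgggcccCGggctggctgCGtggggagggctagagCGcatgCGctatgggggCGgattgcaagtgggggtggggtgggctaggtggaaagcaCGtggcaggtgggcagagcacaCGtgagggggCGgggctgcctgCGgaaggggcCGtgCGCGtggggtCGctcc
STK31: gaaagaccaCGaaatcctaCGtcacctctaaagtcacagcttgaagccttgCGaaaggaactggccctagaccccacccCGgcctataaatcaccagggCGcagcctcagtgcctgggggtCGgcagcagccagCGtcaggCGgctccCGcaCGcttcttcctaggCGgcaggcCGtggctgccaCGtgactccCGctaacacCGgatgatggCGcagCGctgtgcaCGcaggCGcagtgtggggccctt
TDRD1: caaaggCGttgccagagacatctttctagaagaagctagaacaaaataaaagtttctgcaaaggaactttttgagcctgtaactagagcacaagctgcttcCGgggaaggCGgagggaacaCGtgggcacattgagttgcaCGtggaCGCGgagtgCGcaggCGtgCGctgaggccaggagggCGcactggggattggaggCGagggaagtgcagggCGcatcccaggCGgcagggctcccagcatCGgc
TDRD6: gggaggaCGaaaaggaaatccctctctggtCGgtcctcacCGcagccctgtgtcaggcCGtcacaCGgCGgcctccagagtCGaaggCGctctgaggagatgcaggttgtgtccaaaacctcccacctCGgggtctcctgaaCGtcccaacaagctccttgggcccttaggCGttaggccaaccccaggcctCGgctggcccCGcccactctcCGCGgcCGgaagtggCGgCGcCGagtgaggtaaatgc
TEX101: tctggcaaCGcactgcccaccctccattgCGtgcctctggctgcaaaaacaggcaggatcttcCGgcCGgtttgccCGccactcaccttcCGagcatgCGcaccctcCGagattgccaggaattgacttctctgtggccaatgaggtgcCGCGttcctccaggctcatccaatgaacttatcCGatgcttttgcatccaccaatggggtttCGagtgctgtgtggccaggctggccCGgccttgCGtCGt
DAZL: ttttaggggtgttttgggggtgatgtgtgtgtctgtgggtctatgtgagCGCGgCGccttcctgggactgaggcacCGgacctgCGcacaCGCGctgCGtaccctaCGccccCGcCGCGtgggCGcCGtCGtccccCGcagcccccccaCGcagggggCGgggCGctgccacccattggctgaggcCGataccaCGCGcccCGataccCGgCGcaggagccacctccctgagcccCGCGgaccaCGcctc
DDX4: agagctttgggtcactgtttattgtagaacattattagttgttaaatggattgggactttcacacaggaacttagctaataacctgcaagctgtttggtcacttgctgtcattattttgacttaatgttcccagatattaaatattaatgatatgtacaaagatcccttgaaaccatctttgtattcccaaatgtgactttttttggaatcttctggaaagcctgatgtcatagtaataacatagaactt
The windows of the 6 genes held 15 or 19 CpG each. That of DAZL held 28, and that of DDX4 held 0. Another window, not shown, held 13 CpG for TDRD1, 2 for TEX101 and 23 for DAZL. The DDX4 window was the only one held for this gene. Whether germ cells start DDX4 there was not checked, so its 0 may not describe the germline promoter.

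The arrays recorded the intended depletion. On the first UHRF1 probe the level, which is log2 intensity minus that of the array's 75th percentile, was 1.98 and 2.01 on the siCONT arrays with mock, 0.34 with siUHRF1-1 and -0.02 with siUHRF1-2. With TSA it was 1.04 and 1.01 for siCONT, -1.55 for siUHRF1-1 and -2.14 for siUHRF1-2. Each UHRF1 siRNA array lay below both siCONT arrays of its agent, and the fitted change was -1.83 ± 0.22 (SE, limma, adjusted p = 0.012) under mock and -2.87 ± 0.22 (adjusted p = 0.00234) under TSA. On 6 samples, as explained next, the adjusted p was 0.252 and 0.0535. The share of probes well above background ran from 43.3% to 48.0% over the 8 arrays. The siCONT arrays of an agent differed by 1.15 times (mock) and 1.05 times (TSA) the spread that repeated spots give. Each pair was therefore counted as 1 sample in means and carries no SD. Calls are thus given from the fit on 8 arrays and, beside it, from a fit on 6 samples. Over 19900 probes, the SD of the log2 difference within a siCONT pair was 0.164 (mock) and 0.1565 (TSA). Within the UHRF1 siRNA pairs it was 0.489 (mock) and 0.4221 (TSA). The fit on 8 arrays pools these unequal spreads. All 10 colon epithelial marker genes were well above background in every group, but their levels moved. In siCONT cells GPA33 averaged 2.98 with mock and -2.51 with TSA, and LGALS4 1.96 and -1.61. With UHRF1 siRNA under mock LGALS4 averaged 5.07 ± 0.03 (SD, n = 2), and KRT20 1.20 ± 0.58 (SD, n = 2) beside -1.73 in siCONT. Of 7 germ cell markers, DDX4, DAZL, NANOG and LIN28A were not above background on any array, whereas POU5F1, SALL4 and UTF1 were above background on both arrays of every group. Of the fibroblast markers, COL1A1 was above background on both arrays of both TSA groups and PDGFRB on those of UHRF1 siRNA with mock, while the leukocyte and fibroblast markers PTPRC, CD3E, COL1A2 and COL3A1 were above background on both arrays of no group, and the part of these in the results below was not tested. In RNA from bulk cultures, more expressing cells and more RNA per cell cannot be told apart.

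Most of the germline genes had no probe well above background on both arrays of control cells. In siCONT cells with mock, 9 of 59 member probes (15.3%) were well above background on both arrays, against 41.8% of all probes. They belonged to 6 genes, MSH5, PIWIL4, REC8, STAG3, SYCE2 and TDRKH. With UHRF1 siRNA and mock 14 member probes were above background on both arrays (23.7%, against 43.2% of all probes), with TSA alone 12 (20.3%, against 44.6%), and with both 17 (28.8%, against 45.3%). Of the 43 genes, 14 had a probe that was above background on each array of some group. Another 7 genes reached it on single arrays only, and 22 genes on none.

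**Figure D1:**
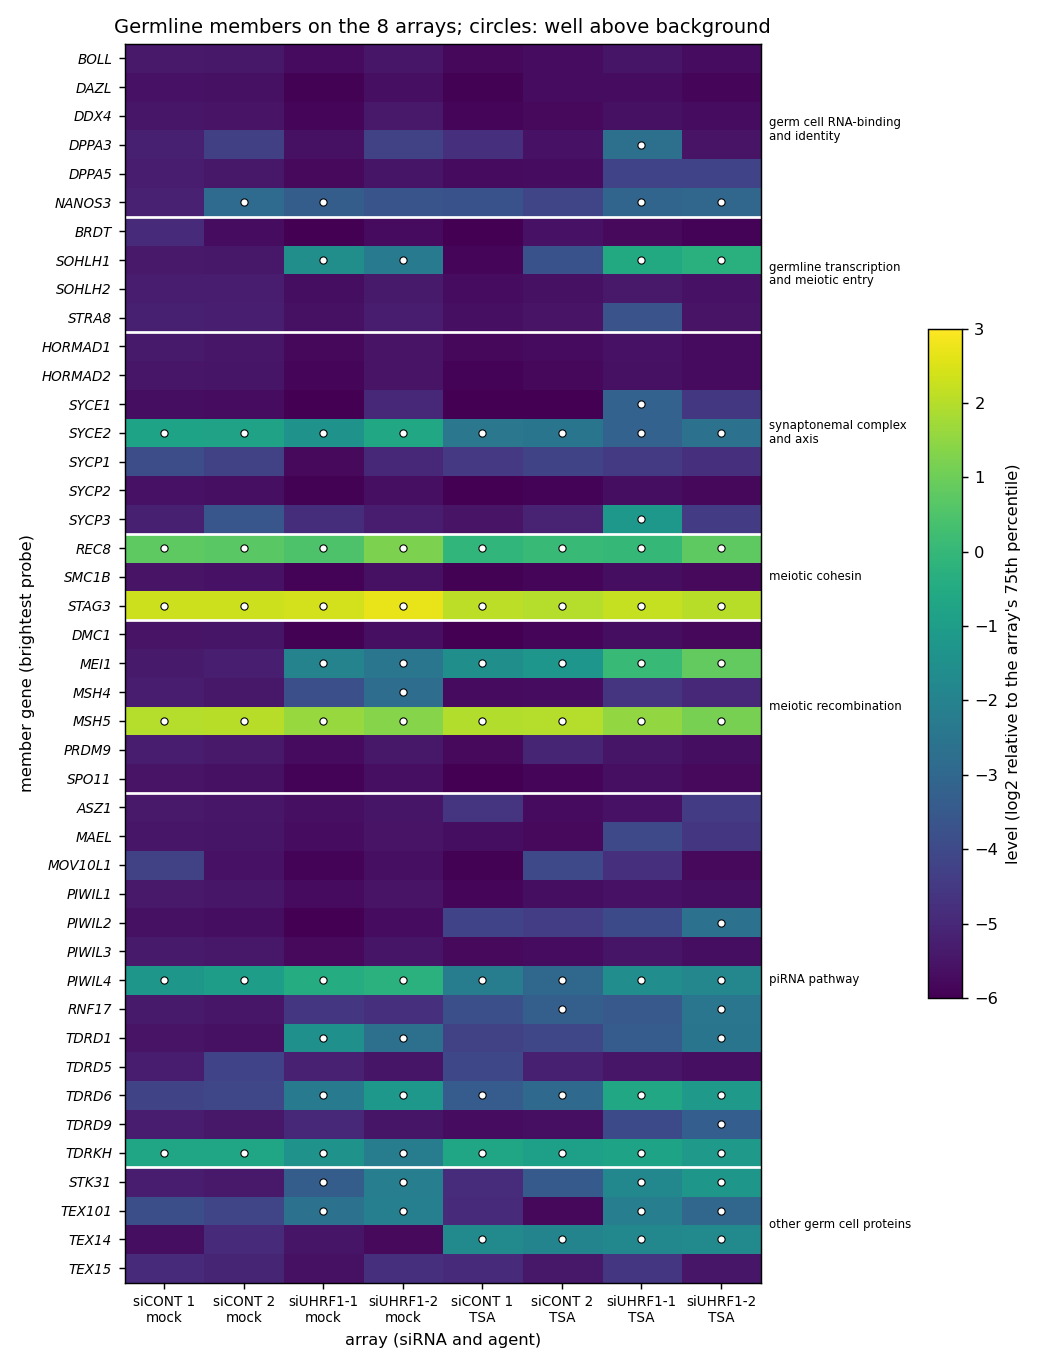
Level of the brightest probe of each of the 43 genes (rows, grouped by role) on the 8 arrays (columns), coloured by log2 intensity relative to the array's 75th percentile, with a circle where the probe was well above background. Of the 43 genes, 6 carry circles in all 4 groups on both arrays, and 22 carry none.

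The probes that were dim in control cells were also counted, since the rule for dim probes does not use the treated arrays. The members themselves were chosen with earlier results of these data known, so the member shares below are not free of that choice. Neither siCONT array with mock was above background for 49 member probes. Of these, 6 (12.2%) were above background on both arrays with UHRF1 siRNA and mock, namely 1 probe each of MEI1, SOHLH1, STK31, TDRD1, TDRD6 and TEX101. The background share over 27872 dim probes was 2.50%. With TSA alone 3 of 49 (6.12%) came above background, MEI1, TDRD6 and TEX14, close to the background share of 5.20%. With UHRF1 siRNA plus TSA 7 of 49 (14.3%) did, from MEI1, SOHLH1, STK31, TDRD6, TEX101 and TEX14, against a background share of 7.00%. These shares are descriptions and were not tested against each other.

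**Figure D2:**
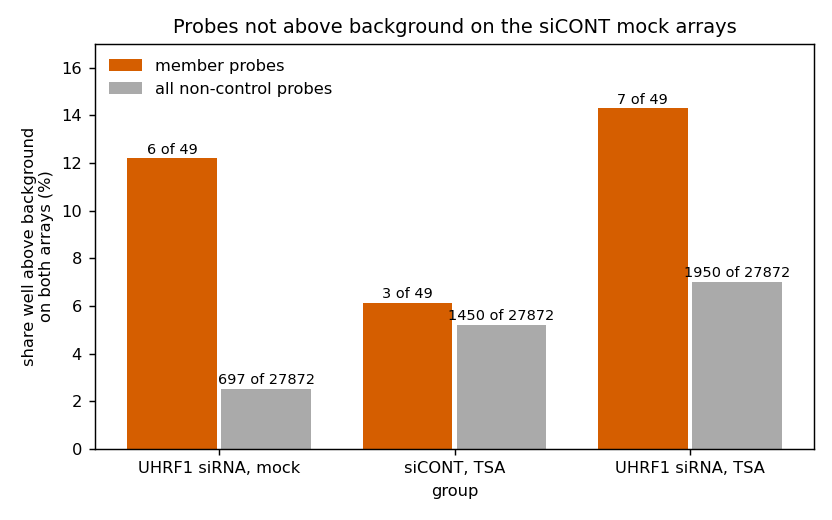
Share (%) of the probes dim on both siCONT mock arrays that were well above background on both arrays of each treated group, for the member probes (orange) and all non-control probes (grey), with counts above the bars. The member share was 12.2%, 6.12% and 14.3%, and the share of all probes 2.50%, 5.20% and 7.00%.

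Among the factors of germline transcription and meiotic entry, SOHLH1 was the single gene of 4 with a probe above background in any group. SOHLH1 is a bHLH transcription factor of early spermatogonia and oocytes, and its probe (chr9:138585266-138585325 in the hg19 coordinates of the array, minus strand) read -5.38 and -5.43 in siCONT with mock, -1.55 and -2.30 with siUHRF1-1 and siUHRF1-2 under mock, -5.85 and -3.72 in siCONT with TSA, and -0.53 and -0.27 with the 2 UHRF1 siRNAs and TSA. The 4 arrays with UHRF1 siRNA lay above all 4 siCONT arrays, which were not above background. SOHLH1 was at least 2.77-fold higher with UHRF1 siRNA under mock (mean -1.93 ± 0.53, SD, n = 2; limma adjusted p = 0.0336, and 0.092 on 6 samples). Under TSA it was at least 10.1-fold higher than in siCONT (-0.40 ± 0.18, SD, n = 2; adjusted p = 0.0114, and 0.0341 on 6 samples). A lower bound is used because a dim probe has no level of its own, and the fold is taken against the lowest signal that counts as above background. The adjusted p beside a bound, here and below, belongs to the fitted change, which uses the dim readings, and not to the bound. A probe can thus be called although its bound is under 2-fold. The rise of 1.52 from mock to TSA in UHRF1-depleted cells did not pass on 8 arrays (adjusted p = 0.114) and passed on 6 samples (0.0317). SOHLH2, its partner, and STRA8 and BRDT, which act at meiotic entry and in spermatid chromatin, were above background on no array.

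Of the 6 genes of meiotic recombination, MEI1 rose with either treatment on 8 arrays. MEI1 is required for the programmed DNA breaks of meiosis. Its probe (chr22:42195336-42195395, hg19, plus strand) read -5.34 and -5.26 in siCONT with mock, -1.97 and -2.45 with siUHRF1-1 and siUHRF1-2, -1.51 and -1.26 in siCONT with TSA, and 0.05 and 0.83 with the 2 UHRF1 siRNAs plus TSA. The 4 groups did not overlap, and only the siCONT mock arrays were not above background. Against those, MEI1 was at least 2.27-fold higher with UHRF1 siRNA (-2.21 ± 0.34, SD, n = 2; adjusted p = 0.00773, and 0.138 on 6 samples), at least 4.04-fold higher with TSA (adjusted p = 0.00057, and 0.0462 on 6 samples) and at least 14.3-fold higher with both (0.44 ± 0.55, SD, n = 2; adjusted p = 0.000125, and 0.00536 on 6 samples). Within UHRF1-depleted cells, where both groups were above background, TSA raised MEI1 by 2.66 ± 0.29 (SE) on the log2 scale (adjusted p = 0.00128, and 0.00978 on 6 samples). Under TSA, UHRF1 siRNA raised it by 1.82 ± 0.29 (adjusted p = 0.0134, and 0.18 on 6 samples).

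MSH5, which stabilises crossover intermediates together with MSH4, was expressed throughout. Its brighter probe read 2.00 and 2.02 in siCONT with mock, 1.48 ± 0.17 (SD, n = 2) with the UHRF1 siRNAs, 1.95 and 2.01 in siCONT with TSA, and 1.53 and 1.16 with both treatments. The UHRF1 siRNA arrays lay below all siCONT arrays, but the change stayed under 2-fold, at -0.52 ± 0.16 (SE, adjusted p = 0.096) under mock and -0.64 ± 0.16 (adjusted p = 0.0465) under TSA, and the second MSH5 probe gave -0.51 and -0.71. MSH4 was above background on the siUHRF1-2 mock array alone, at -2.80. The recombinase DMC1, the break-making SPO11 and the hotspot methyltransferase PRDM9 were above background on no array.

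Of the 13 genes of the piRNA pathway, 4 were above background in a group, 3 on single arrays and 6 on none. TDRD1 is a Tudor protein that binds PIWI proteins at the nuage, the granule where piRNAs are made. Its first probe (chr10:115991963-115992022, hg19, plus strand) read -5.53 and -5.58 in siCONT with mock, -1.47 and -2.68 with siUHRF1-1 and siUHRF1-2, -4.24 and -4.09 in siCONT with TSA, and -3.40 and -2.50 with the 2 UHRF1 siRNAs plus TSA. It was above background on both UHRF1 siRNA arrays under mock and, under TSA, on that of siUHRF1-2 alone. Under mock TDRD1 was at least 2.50-fold higher with UHRF1 siRNA (-2.08 ± 0.86, SD, n = 2; adjusted p = 0.0138, and 0.207 on 6 samples). Its second probe was above background on the siUHRF1-1 array with mock and the siUHRF1-2 array with TSA, and was tested in no comparison.

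TDRD6, a Tudor protein of spermatid granules, read -4.17 and -4.09 in siCONT with mock, -2.30 and -1.19 with siUHRF1-1 and siUHRF1-2, -3.39 and -2.91 in siCONT with TSA, and -0.65 and -1.15 with the 2 UHRF1 siRNAs plus TSA (chr6:46670025-46670084, hg19, plus strand). All 6 treated arrays were above background and above both untreated ones. TDRD6 was at least 3.14-fold higher with UHRF1 siRNA under mock (-1.75 ± 0.78, SD, n = 2; adjusted p = 0.0244, and 0.297 on 6 samples) and at least 5.64-fold higher with both treatments (-0.90 ± 0.35, SD, n = 2; adjusted p = 0.00132, and 0.0202 on 6 samples). Under TSA, UHRF1 siRNA raised it by 2.25 ± 0.39 (SE, adjusted p = 0.0162, and 0.177 on 6 samples). TSA in siCONT cells did not pass the test (at least 1.18-fold higher, adjusted p = 0.0892), and the 2 responses share the siCONT TSA arrays and were not compared. A second TDRD6 probe, chr6:46671931-46671990, was dim on all 8 arrays, so the 2 probes of the gene disagreed.

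PIWIL4 is the PIWI protein that directs silencing in the nucleus, and it was expressed in control cells. It read -1.24 and -0.99 in siCONT with mock, -0.43 and -0.25 with the 2 UHRF1 siRNAs, -2.20 and -3.00 in siCONT with TSA, and -1.60 and -1.83 with both. The TSA arrays lay below all mock arrays. PIWIL4 fell with TSA by 1.48 in siCONT cells (SE 0.27, adjusted p = 0.00848, and 0.0951 on 6 samples) and by 1.37 in UHRF1-depleted cells (SE 0.27, adjusted p = 0.00988, and 0.0175 on 6 samples). The higher levels with UHRF1 siRNA, 0.77 under mock and 0.88 under TSA, did not pass the test (adjusted p = 0.121 and 0.0732).

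TDRKH, a Tudor protein of the mitochondrial surface that helps trim piRNAs, read -0.68 and -0.66 in siCONT with mock, -1.39 and -2.17 with the 2 UHRF1 siRNAs, -0.66 and -0.91 in siCONT with TSA, and -0.78 and -1.17 with both. Its lower level with UHRF1 siRNA under mock, -1.11 ± 0.28 (SE), missed the threshold (adjusted p = 0.0612), and its second probe gave -0.76 ± 0.36 (adjusted p = 0.213). PIWIL2, the Tudor protein RNF17 and the helicase TDRD9 reached background only on single TSA arrays, PIWIL2 at -2.61 and TDRD9 at -3.29 on the siUHRF1-2 array, and RNF17 at -3.29 in siCONT and -2.46 with siUHRF1-2. PIWIL1, PIWIL3, MAEL, ASZ1, MOV10L1 and TDRD5 were above background on no array.

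Of the 7 genes of the synaptonemal complex and chromosome axis, SYCE2 alone was above background in a group. SYCE2 is a central element protein, and it read -0.77 and -0.82 in siCONT with mock, -1.37 and -0.61 with the 2 UHRF1 siRNAs, -2.45 and -2.50 in siCONT with TSA, and -3.15 and -2.62 with both treatments. The 4 TSA arrays lay below the 4 mock arrays. SYCE2 fell with TSA by 1.68 in siCONT cells (SE 0.29, adjusted p = 0.00657, and 0.161 on 6 samples), and by 1.89 in UHRF1-depleted cells (SE 0.29, adjusted p = 0.00382, and 0.0242 on 6 samples). UHRF1 siRNA gave -0.20 under mock (adjusted p = 0.659). SYCP3 and SYCE1, an axial and a central element protein, were above background on the siUHRF1-1 array with TSA alone, at -1.21 and -3.19, and not with siUHRF1-2. SYCP1, SYCP2, HORMAD1 and HORMAD2 were dim throughout.

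The meiotic cohesin subunits REC8 and STAG3 were expressed in control cells, and SMC1B was dim on all arrays. REC8, the kleisin that replaces RAD21 in meiosis, read 0.76 and 0.70 in siCONT with mock, 0.50 and 1.24 with the 2 UHRF1 siRNAs, -0.09 and 0.06 in siCONT with TSA, and 0.01 and 0.76 with both, and it passed in no comparison. For STAG3 the probes disagreed. The brightest probe (chr7:99780378-99780428, hg19) read between 2.00 and 2.69 on all arrays and was called in no comparison. A second probe (chr7:99811912-99811971) read -1.37 and -1.59 in siCONT with mock, -1.94 and -1.61 with the 2 UHRF1 siRNAs, -0.61 and -0.74 in siCONT with TSA, and 0.08 on both arrays with both treatments. On it STAG3 rose with TSA in UHRF1-depleted cells by 1.85 ± 0.16 (SE, adjusted p = 0.000567, and 0.00833 on 6 samples). In siCONT cells the change was 0.81 ± 0.16, which is under 2-fold (adjusted p = 0.0102). The difference between these 2 responses, 1.05 ± 0.22, missed the threshold (adjusted p = 0.0505, and 0.555 on 6 samples). Another STAG3 probe was above background on 2 arrays, those of siUHRF1-2.

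STK31, TEX101, TEX14 and TEX15 are germ cell proteins of other kinds, and 3 of these 4 genes came above background. STK31, with Tudor and kinase domains, read -5.32 and -5.39 in siCONT with mock, -3.35 and -2.15 with siUHRF1-1 and siUHRF1-2, -4.86 and -3.46 in siCONT with TSA, and -1.80 and -1.24 with the 2 UHRF1 siRNAs plus TSA (chr7:23872041-23872100, hg19, plus strand). On this probe each UHRF1 siRNA array lay above every siCONT array. STK31 was at least 1.57-fold higher with UHRF1 siRNA under mock (-2.75 ± 0.85, SD, n = 2; adjusted p = 0.0444, and 0.289 on 6 samples), and at least 4.31-fold higher under TSA (-1.52 ± 0.39, SD, n = 2; adjusted p = 0.0275, and 0.152 on 6 samples). A second STK31 probe was above background on both arrays with both treatments, at -2.99 and -2.65, and was not called there (adjusted p = 0.116). Under mock this second probe read -3.52 and -5.52 in siCONT, -4.26 with siUHRF1-1 and -2.63 with siUHRF1-2. It was above background on the siUHRF1-2 array alone, so the 2 probes disagreed for siUHRF1-1 under mock.

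TEX101, a surface protein of spermatocytes and sperm, read -3.85 and -4.12 in siCONT with mock, -2.63 and -2.10 with siUHRF1-1 and siUHRF1-2, -4.93 and -5.79 in siCONT with TSA, and -2.14 and -3.01 with the 2 UHRF1 siRNAs plus TSA (chr19:43922526-43922585, hg19, plus strand). All 4 UHRF1 siRNA arrays were above background and no siCONT array was. Under mock the test missed the threshold (at least 2.05-fold, adjusted p = 0.0598), and under TSA it passed (at least 2.24-fold, adjusted p = 0.0104, and 0.0926 on 6 samples).

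TEX14, a component of the bridges that join germ cells, was above background on the TSA arrays alone. Its probe (chr17:56634110-56634169, hg19, minus strand) read -5.67 and -4.93 in siCONT with mock, -5.48 and -5.77 with the 2 UHRF1 siRNAs, -1.70 and -1.95 in siCONT with TSA, and -1.80 and -1.70 with both treatments. All 4 TSA arrays were above background and no mock array was. TSA raised TEX14 at least 2.97-fold in siCONT cells (adjusted p = 0.000586, and 0.0359 on 6 samples) and at least 3.61-fold in UHRF1-depleted cells (-1.75 ± 0.07, SD, n = 2; adjusted p = 0.000286, and 0.00228 on 6 samples). Under TSA, UHRF1 siRNA changed it by 0.08 (95% interval -0.55 to 0.71, adjusted p = 0.855).

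Of the 6 germ cell identity and RNA-binding genes, NANOS3, which protects primordial germ cells, had a probe above background on both arrays of 1 group. It read -5.17 and -2.84 in siCONT with mock, -3.35 and -3.67 with the 2 UHRF1 siRNAs, -3.73 and -4.13 in siCONT with TSA, and -3.06 and -3.03 with both treatments. The second siCONT mock array, above background at -2.84, was the brightest of the 8, and NANOS3 passed in no comparison. The maternal factor DPPA3 was above background on the siUHRF1-1 array with TSA alone, at -2.70. The RNA helicase DDX4, the RNA-binding proteins DAZL and BOLL, and DPPA5 were dim on all arrays, as was TEX15 of the group above.

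**Figure D3:**
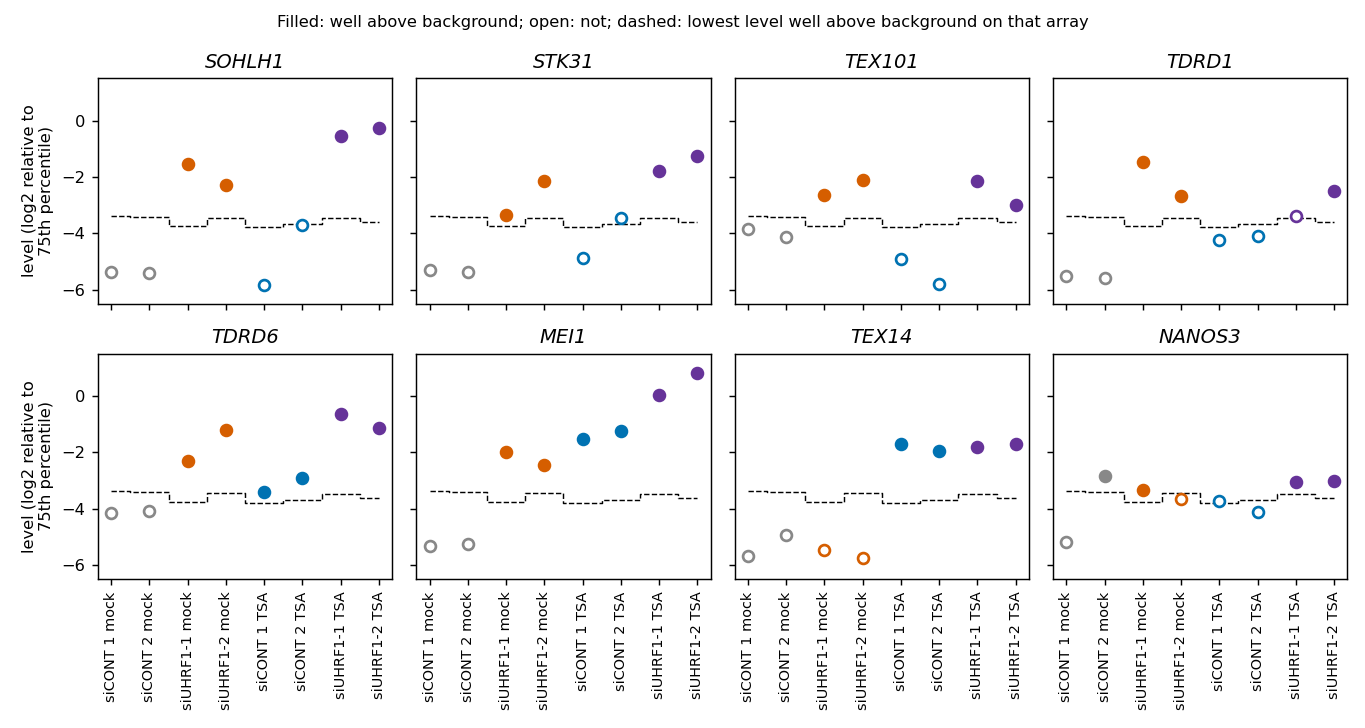
Level (log2 relative to the array's 75th percentile) of the 8 genes that were above background on both arrays of a treated group but not of siCONT with mock, on each of the 8 arrays. Filled points are well above background, open points are not, and the dashed line is the lowest level that counted as above background on that array. SOHLH1, STK31 and TEX101 are filled on the 4 UHRF1 siRNA arrays, TEX14 on the 4 TSA arrays, and MEI1 and TDRD6 on all 6 treated arrays.

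Across the list, UHRF1 depletion under mock raised 5 probes of 5 genes (MEI1, SOHLH1, STK31, TDRD1, TDRD6) among 15 tested and lowered none, where 4.12% of 22396 probes tested over the whole array were called 3.13% higher and 0.987% lower. On 6 samples none of the 15 was called by limma, although 7 had an unadjusted p under 0.05 with at least 2-fold change, and 0.0223% of all probes were called. The methods' t-test at 2-fold and an unadjusted p under 0.05 called 5 and, after Benjamini-Hochberg, 0. With normexp background correction 0 were called, without either siCONT mock array 0, without the siUHRF1-2 mock array 3, and without any 1 of the 4 TSA arrays 3. With siRNA identity as a block among the UHRF1-depleted arrays, chosen after seeing the data, 3 were called. The other 44 probes were not tested because no group compared was above background on both arrays, and a dim probe entered only through the group in which it was bright.

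TSA in siCONT cells raised MEI1 and TEX14 and lowered PIWIL4 and SYCE2, which is 4 of 12 probes tested, where 18.6% of 23243 probes were called, 10.4% higher and 8.22% lower. On 6 samples 2 were called, MEI1 and TEX14, where 1.56% of probes were, and with normexp correction 0 were. Mock and TSA samples occupied different rows of the slide, so the agent and the slide row cannot be told apart. UHRF1 depletion plus TSA, set against siCONT with mock, raised MEI1, SOHLH1, STAG3, STK31, TDRD6, TEX101 and TEX14 and lowered SYCE2, 8 of 17 probes tested, where 25.6% of 23738 were called, 14.5% higher and 11.1% lower. On 6 samples 7 were called, all but TEX101, where 15.4% of probes were, and with normexp correction 3 were.

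Under TSA, UHRF1 depletion raised MEI1, SOHLH1, STK31, TDRD6 and TEX101 and lowered none of 17 probes tested, where 8.27% of 23846 were called, 5.39% higher and 2.87% lower. On 6 samples SOHLH1 alone was called, where 0.692% of probes were. Normexp correction left 2 calls, leaving out either siCONT TSA array 2 or 1, and leaving out the siUHRF1-1 TSA array 3. In UHRF1-depleted cells TSA raised MEI1, STAG3 and TEX14 and lowered PIWIL4 and SYCE2, 5 of 18 probes tested, where 20.7% of 23913 were called, 11.7% higher and 9.01% lower. On 6 samples 6 were called, SOHLH1 being added, where 17.6% of probes were, and with normexp correction 2 were. No member passed the test of the difference between the UHRF1 effect under TSA and that under mock, where 4.89% of 24591 probes were called by limma on 8 arrays (2.83% higher, 2.07% lower) and 0.00% on 6 samples. Among the 18 members tested for it, 3 had an unadjusted p under 0.05 with a difference of at least 1, and leaving out either UHRF1 siRNA mock array gave 2 calls. These comparisons share arrays, so their calls are not independent of each other.

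**Figure D4:**
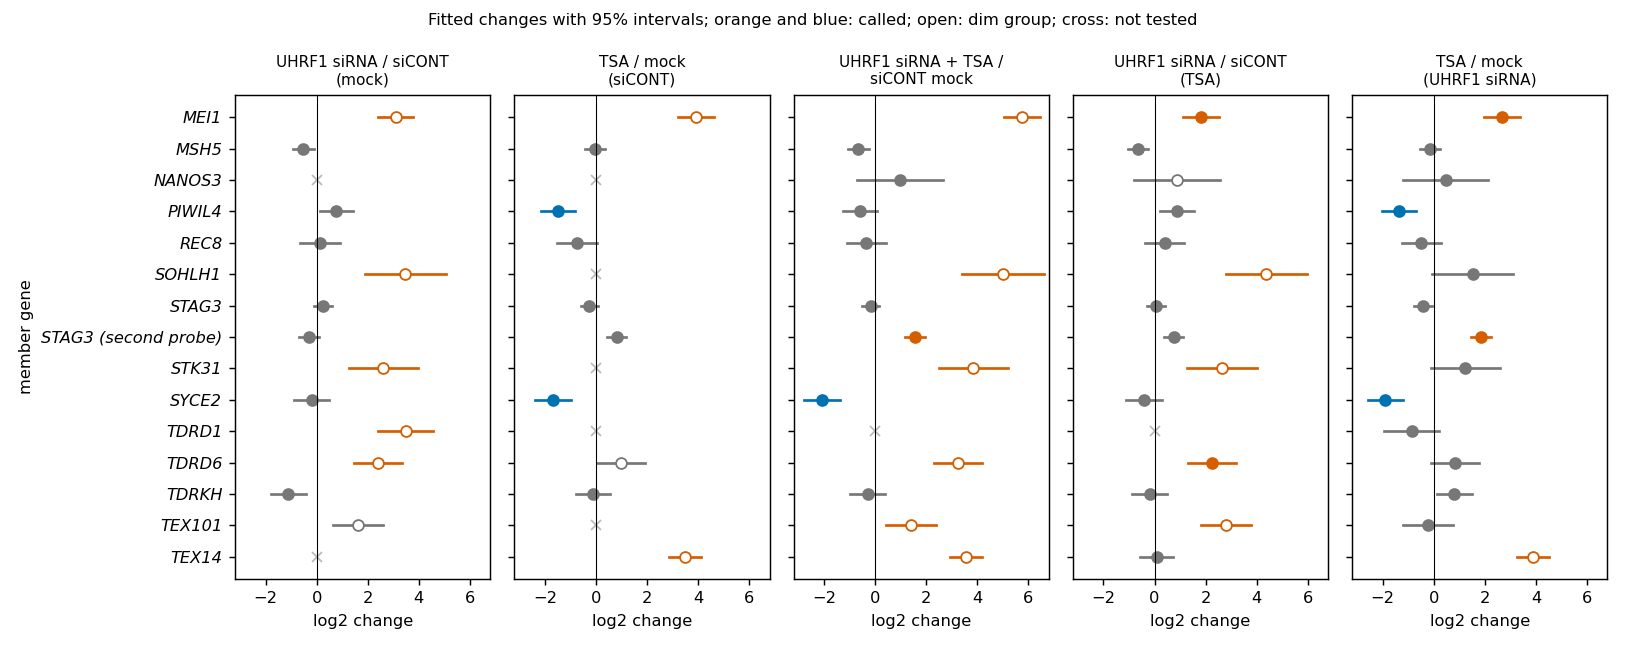
Fitted log2 change (points) with 95% confidence interval (lines) of the 14 genes tested in a comparison, one panel for each of 5 comparisons, with a second STAG3 probe added. Orange points were called higher and blue points lower on 8 arrays, open points have a dim group so that their size depends on background signal, and crosses were not tested. MEI1 lies to the right of 0 in all panels. SYCE2 lies to the left in all panels and was called lower in the 3 that set TSA against mock.

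The median change over all 59 member probes, most of them dim and so reading background signal, was -0.20 with UHRF1 siRNA under mock (-0.20 over all probes), -0.34 with TSA in siCONT cells (-0.33 over all probes) and -0.17 with both treatments (-0.17 over all probes). It was 0.19 with UHRF1 siRNA under TSA (0.16 over all probes), 0.04 with TSA in UHRF1-depleted cells (0.03 over all probes) and 0.38 for the difference between the UHRF1 effects (0.31 over all probes). The share of member probes with a change above 0 was, in that order, 32.2%, 27.1%, 42.4%, 79.7%, 72.9% and 74.6%, beside 31.8%, 32.3%, 36.0%, 63.0%, 59.7% and 66.1% of all probes. None of these was tested. For the first 3 comparisons the medians over the probes that were tested were 0.24, -0.02 and 0.96, beside -0.10, -0.11 and -0.14 over all probes tested, and those member medians rest on a choice of probes that used the treated arrays. Median scaling moved every change of the combined treatment by -0.40, of UHRF1 siRNA under TSA by -0.35, of TSA in UHRF1-depleted cells by -0.39 and of the difference between the UHRF1 effects by -0.34.

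In CpG content the start regions of the genes that came above background overlapped those of the genes that stayed dim. Of the 8 genes above background on both arrays of a treated group but not of siCONT with mock, 7 had a window. Their CpG count before the start had a median of 19 and a range of 15 to 36. The 36 belonged to NANOS3, which was above background on 1 siCONT mock array and whose other windows held 7 and 4 CpG. The other window of TEX101 held 2 CpG and that of TDRD1 held 13. Over the 19 genes that were dim on all arrays the median was 22 and the range 0 to 51, the 0 being the single window held for DDX4. Over the 5 genes expressed in all groups the median was 24. All of these medians exceeded that over 27305 genes in the table, 12. The E-box CACGTG, whose letters read the same on both strands and hold 1 CpG, was present before the start of 3 of the 7 genes (SOHLH1 with 3 copies, TDRD1 with 2 and STK31 with 1), of 2 of the 19 dim genes, of 1 of the 5 genes expressed in all groups, of 1 of the 6 genes seen on single arrays, and of 6.63% of all genes. The E2F-like motif GCGGGA, searched on both strands, was present in 1 of the 7 (STK31), in 9 of the 19, in 4 of the 5 genes expressed in all groups, in 2 of the 6 seen on single arrays, and in 24.9% of all genes. These counts use only the window of each gene with the most CpG. Of the dim genes, DAZL and MAEL held CACGTG in their other window and not in the one counted. For DAZL the same was true of GCGGGA. These matches are letters in a window and were not tested.

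**Figure D5:**
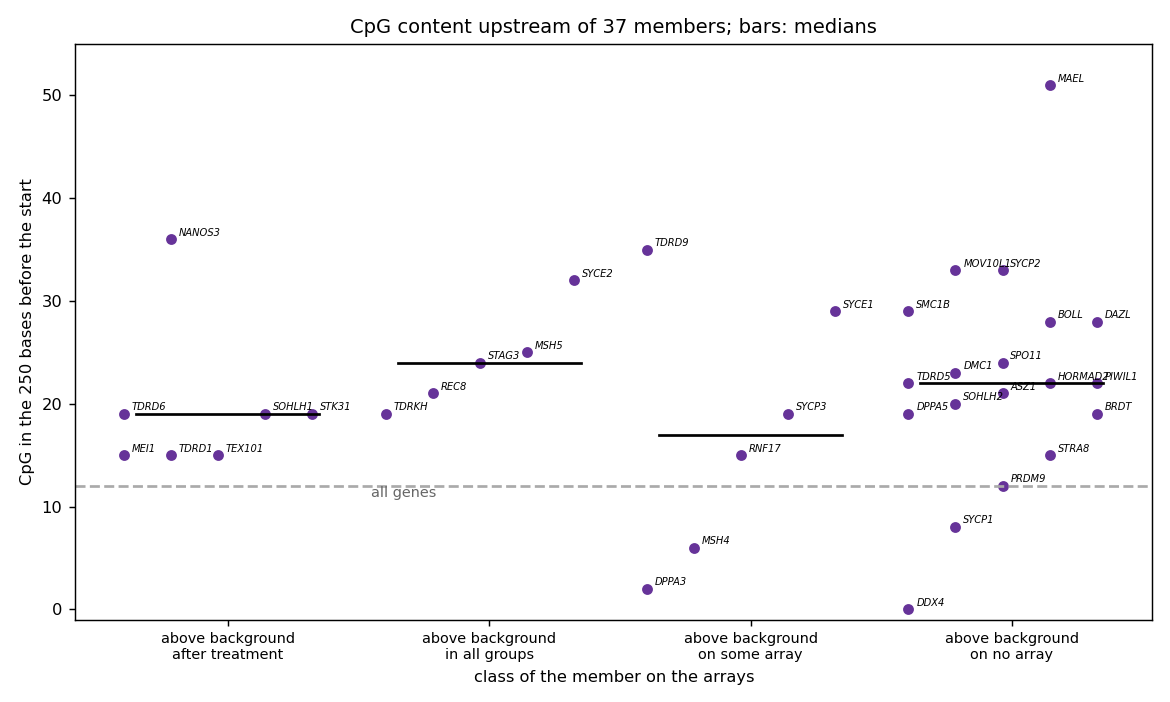
CpG dinucleotides in the 250 bases before the start of 37 genes, by how the gene behaved on the arrays, with black bars for class medians and a dashed line for the median over all genes in the table. The class above background after treatment had a median of 19 CpG and genes dim on all arrays 22, with overlapping ranges. That class includes NANOS3, which was above background on 1 siCONT mock array.

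A second list held other germline genes of the same processes. Of 53 further symbols, 46 were on the array with 65 probes. UHRF1 depletion under mock called 0 of 23 tested by limma (2 with an unadjusted p under 0.05 and 2-fold change), where 4.12% of all probes were called, and the methods' t-test called 0. Yet GTSF1 and TEX19, dim on both siCONT mock arrays, were above background on both UHRF1 siRNA arrays under mock. GTSF1 read -1.66 and -2.42 there (siCONT -3.61 and -5.03), and TEX19 -1.66 and -2.50 (siCONT -4.88 and -3.32). No other dim probe of this list did so, where 2.50% of all dim probes did. With both treatments 13 of 30 probes were called, 8 higher and 5 lower, where 25.6% of all probes were called (14.5% higher and 11.1% lower). On 6 samples 11 were called, where 15.4% of all probes were. The 4 genes named are those with the largest fitted changes, an order that depends on background signal because their control probes were dim. They were TEX19, a germline silencing factor (at least 21.4-fold higher, adjusted p = 0.000739), GTSF1, a piRNA cofactor (at least 13.4-fold higher, adjusted p = 0.00331), the testis chaperone CLGN (higher, adjusted p = 0.0154) and TDRD10, a Tudor protein (at least 2.50-fold higher, adjusted p = 8.8e-05). CLGN read -2.55 on the siCONT mock array where it was above background and was dim on the other, beside -0.04 and -0.84 with both treatments, so no size is given. The probes that fell were those of MLH3, MND1, PSMC3IP and TRIP13, which act in meiotic recombination and of which several are also used by dividing somatic cells.

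Among 16 genes that repress germline genes, all had a probe above background. The probes of MGA, E2F6, PCGF6, CBX3, HDAC1, HDAC2, RING1, RNF2 and YAF2 were called in no comparison. TSA in siCONT cells called 2 of 26 probes by limma (7.69%, against 18.6% of all probes), and none on 6 samples. RYBP rose by 1.10 (SE 0.34, adjusted p = 0.0437, and 0.349 on 6 samples). The second UHRF1 probe fell by 1.13 (SE 0.36, adjusted p = 0.0493, and 0.357 on 6 samples). With both treatments 6 of 26 repressor probes tested were called (23.1%, against 25.6% of all probes), 2 higher and 4 lower. On 6 samples 4 were (15.4%, against 15.4% of all probes). Both counts include the 2 probes of UHRF1, which the siRNA targets, so their fall was set by the design. Among the other probes called, DNMT1, the maintenance methyltransferase, fell by 1.28 (SE 0.12, adjusted p = 0.000552, and 0.0345 on 6 samples) and L3MBTL2 by 1.24 (SE 0.13, adjusted p = 0.000844, and 0.0401 on 6 samples). MAX rose on 2 of 3 probes by 1.07 and 1.01 (adjusted p = 0.00198 and 0.0105), which did not pass on 6 samples (0.0653 and 0.12). UHRF1 siRNA under mock called 2 of 26 probes (7.69%, against 4.12% of all probes), both of UHRF1 itself. DNMT1 then stood at -0.08 ± 0.12 (SE, adjusted p = 0.678). In UHRF1-depleted cells TSA lowered 7 of 26 probes and raised none (26.9% called, against 20.7% of all probes). They were those of DNMT1, L3MBTL2, TFDP1, UHRF1 and WDR5, and all 7 passed on 6 samples, where 17.6% of all probes did.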

How the data were processed

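RNA of 8 DLD1 samples was hybridised to 1-colour Agilent arrays. The deposited files hold spot intensity from Agilent Feature Extraction (version 10.7 per the submitters' notes, 10.7.3.1 in the headers). The methods name GeneSpring GX without a normalization. A table of values deposited by the authors gives the same processed intensity, with ratios from 0.995 to 1.00, and serves as an alternative.

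Processed intensity was log2 transformed and the 75th percentile of each array subtracted, control spots were left out, and repeated spots of a probe were averaged. The linear model of limma 3.58.1 (R 4.3.3, with Python 3.11.15 for summaries) had a mean for each group. A probe was tested where some group in the comparison had it well above background on each of its arrays. It was called at a Benjamini-Hochberg adjusted p under 0.05, over all probes tested, and at least 2-fold fitted change, also where the text gives a bound. The fit was tested on simulated data first. The 6-sample fit averages the siCONT arrays of an agent, and no source says that they came from separate cultures, so p-values measure only the spread between these samples, which may be technical. Intensities of an array carry no counting depth.

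Every member with a probe above background throughout a group is described with all its values, and the rest are named. Members and lists were chosen with earlier results of these data known. Replicate numbers pair samples only by siRNA, where deviations from group means correlated at 0.34 between UHRF1-depleted arrays with mock and TSA (-0.06 to 0.07 for other pairs of groups, over 19900 probes). One marker result is not reported here.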

Additional observations from a re-analysis of the deposited data

Results flagged for a closer look

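No member passed the test of the difference between the UHRF1 effect under TSA and that under mock on 8 arrays, where STAG3 came nearest (adjusted p = 0.0505). Quantile normalization, no filter on dim probes, probes above background on all arrays and siRNA identity as a block each called 1 member probe, and leaving out either UHRF1 siRNA mock array called 2. Among the other germline genes and the repressors, 8 probes did on 8 arrays by limma, and none did on 6 samples. The difference (effect under TSA minus effect under mock, log2) was 3.98 for DPPA2 (SE 0.25, adjusted p = 0.00476, and 0.189 on 6 samples), 2.28 for PRDM1 (SE 0.47, adjusted p = 0.0473, and 0.435 on 6 samples) and 1.48 for TDRD10 (SE 0.21, adjusted p = 0.0244, and 0.435 on 6 samples). These 3 probes were dim in at least 1 group, so the size is no bound. PRDM1 was dim in both mock groups (means -3.56 and -5.45), and its effect under TSA, 0.39, did not pass (adjusted p = 0.438). A second PRDM1 probe gave a difference of 0.05 (SE 0.76, adjusted p = 0.973). DPPA2 was above background only on the 2 arrays with UHRF1 siRNA and TSA, at -2.14 and -2.07.

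Negative differences were found for PSMC3IP (-1.09, SE 0.21, adjusted p = 0.0441, and 0.543 on 6 samples), TRIP13 (-1.45, SE 0.24, adjusted p = 0.0332, and 0.472 on 6 samples) and WDR5 (-1.32, SE 0.16, adjusted p = 0.0193, and 0.443 on 6 samples). For TFDP1 they were -1.27 and -1.21 on 2 probes (SE 0.23 and 0.16, adjusted p = 0.0368 and 0.0215, and 0.508 and 0.481 on 6 samples).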

How the results depend on the processing

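Of 27 called changes of member probes, 27 passed under median scaling, scaling over detected probes and the deposited value table, 26 under quantile normalization, 22 with no filter, 15 on 6 samples and 7 with normexp background, and none changed sign. The comparisons are given below in the order UHRF1 siRNA under mock, TSA in siCONT cells, both treatments, UHRF1 siRNA under TSA, TSA in UHRF1-depleted cells, and the difference between the UHRF1 effects. The calls were 5, 4, 8, 5, 5 and 0. On 6 samples they were 0, 2, 7, 1, 6 and 0, with normexp background 0, 0, 3, 2, 2 and 0, with no filter on dim probes 2, 5, 13, 7, 11 and 1, and among probes above background on all arrays 1, 2, 2, 0, 3 and 1. Quantile normalization gave 1 call for the last. The methods' t-test called 5, 3, 7, 3 and 4 of the first 5 comparisons, and after Benjamini-Hochberg 0, 3, 5, 0 and 0. With the replicate number as a block there were 4, 4, 8, 5, 5 and 0 calls, and with siRNA identity as a block among the UHRF1-depleted arrays, chosen after seeing the data, 3, 4, 7, 5, 5 and 1. Leaving out 1 array gave 0 to 6, 3 to 4, 7 to 8, 1 to 5, 4 to 7 and 0 to 2. The cause was not tested.

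The median change of the members tested moved with no filter to -0.20, -0.34, -0.17, 0.19, 0.0387 and 0.38. With the brightest probe of each gene it was 1.20 under mock, -0.12 for TSA in siCONT cells, 0.16 for TSA in UHRF1-depleted cells and 0.0753 for the difference. From the second comparison on, median scaling gave -0.0669, 0.56, 0.40, 0.15 and -0.16, and quantile normalization 0.0111, 0.59, 0.53, 0.18 and -0.0618. Probes positive and significant on both arrays, a looser rule, numbered 16 in siCONT with mock, 23 with UHRF1 siRNA and mock, 24 in siCONT with TSA and 30 with both, and 26 were above background on at least 1 array with both treatments. The number of arrays and the signal over background limit the precision, since most member probes were dim.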

Other observations

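PLD6, a mitochondrial nuclease of the piRNA pathway outside the 43 genes, was picked out after its values were seen. It read 5.38 with siUHRF1-1 under mock and 1.59 with siUHRF1-2, beside 0.96 and 0.87 for siCONT under mock, 1.54 and 1.49 for siCONT under TSA, and 0.29 and 1.47 with the 2 UHRF1 siRNAs plus TSA. It was above background on all 8 arrays, and a single array with siUHRF1-1 set the difference.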
